A study of Mus musculus with 11 samples.

Results

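The measurements concerned 10 mouse genes of the heat shock and chaperone system, Hspa8, Hspa5, Hsp90aa1, Hsp90ab1, Hsph1, Hspd1, Hspe1, Dnajb1, Dnaja1 and Hspa4l. They were listed by name, and earlier results of these data were known when they were chosen. All 10 were among the 13088 genes of the deposited exon table. 7 of them also had a row among the 5867 regions of the deposited table of upstream antisense RNA (uaRNA), the RNA transcribed away from a promoter in the direction opposite to its gene. Hspd1, Hspe1 and Hspa4l had no row in the uaRNA table used here, so only their exon reads are described.

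The data were transient transcriptome sequencing (TT-seq), in which RNA made during a short pulse of 4-thiouridine (4sU) is fragmented, isolated and sequenced, so that reads report RNA synthesis more than RNA stocks. The cells were wild-type F121-9 mouse embryonic stem cells, an established female CAST/129 hybrid line, grown on gelatin in the serum-free medium SFES with LIF and inhibitors of MEK and GSK3. They were transfected with 30 nM of a non-targeting siRNA (siNT, 3 libraries, replicates 1, 2 and 3) or of an siRNA to ZC3H4 (siZC3H4, 2 libraries, replicates 2 and 3), labelled with 500 µM 4sU during 20 minutes, and collected at 47 hours from transfection. ZC3H4 is a zinc finger protein known for restricting the transcription of short non-coding units such as uaRNAs, and the comparison asked what changed in nascent RNA when it was targeted. All 5 libraries came from 1 cell line, and in such bulk samples a change in the number of cells of a kind and a change in RNA per cell cannot be told apart.

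Values are reads divided by 1 depth factor per library, called depth-normalized reads here. Recovered exon reads ranged from 14840637 to 26548710 per library and uaRNA reads from 996927 to 2648683, and siZC3H4 replicate 2 was the deepest library in both. All 10 embryonic stem cell marker genes were in the exon table, with summed levels of 83136 to 111445. Of 7 fibroblast or feeder markers only Thy1 was in the table, at 76.5 to 135. The summed levels of 4 neural ectoderm markers were 1310 to 1595 in siNT and 1892 and 1944 in siZC3H4. Those of 4 primitive endoderm markers were 104 to 188 and 221 and 229. Both sums were higher in both siZC3H4 libraries than in every siNT library, as were 19.5% of all genes. Of the primitive endoderm markers only Pdgfra was so by itself (47.0 to 82.8 against 125 and 107), and Gata6, Gata4 and Sox7 overlapped. Of the neural ectoderm markers Tubb3, Sox1 and Pax6 were, and Nes overlapped. The summed levels of trophoblast and mesoderm markers, 218 to 305 and 149 to 366 over all libraries, overlapped between groups. The part of these markers in the results was not tested. In limma no tested marker of the 6 cell types examined was called different between the groups. Nascent reads of the siRNA target were higher in the libraries labelled with it. Zc3h4 exon reads were 3465, 3610 and 3363 in siNT and 7285 and 6718 in siZC3H4, a log2 difference of 1.01 ± 0.11 (SE; limma adjusted p = 0.00431), and the call was lost without siNT replicate 1 (adjusted p = 0.0557) or siZC3H4 replicate 2 (adjusted p = 0.0569). Nascent RNA does not measure mature mRNA or protein, and neither was measured here. The libraries are therefore named by their label throughout, and every direction given is that of libraries labelled siZC3H4 against siNT.

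Chaperones bind unfolded or partly folded proteins and help them reach or keep their native state. HSP70 proteins bind short exposed stretches and release them in an ATP cycle that J proteins start and nucleotide exchange factors reset; HSP90 proteins act later, on proteins such as kinases and hormone receptors; and chaperonins enclose a protein in a chamber. Under heat or other protein stress the transcription factor HSF1 binds heat shock elements in their promoters and raises their transcription within minutes, while the endoplasmic reticulum has its own stress response with separate promoter elements. Embryonic stem cells are known for high basal chaperone expression.

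Promoter sequence from RefSeq (GRCm38.p6, 250 bases before to 50 after a start) was matched for 7 of the 10 genes, and Hspa8, Hsp90aa1 and Hsp90ab1 had no entry in the table used. The stretches that carry a stress element before the start are shown, because such elements are what heat shock genes are known for. They are reference sequence, and the CAST/129 cells may differ from it. RefSeq gives Hspd1, Hsph1 and Dnaja1 more than 1 start, and 1 of them is used for each here. The first is the whole interval of 215 bases (chr1:55087933-55088147, plus strand) between the Hspd1 start at 55087932 and the Hspe1 start. From these starts the genes transcribe away from each other. The other Hspd1 start, 55088243, lies past the Hspe1 start at 55088148, so no such interval exists for it. Capitals mark a run of 18 bases holding overlapping heat shock elements. The second is the 150 bases before the Hsph1 start (chr5:149636337-149636486, minus strand) and the third the 150 bases before the Dnaja1 start (chr4:40722318-40722467, plus strand), each with a paired heat shock unit in capitals. The fourth is the 150 bases before the Hspa5 start (chr2:34771940-34772089, plus strand), with its endoplasmic reticulum stress element in capitals. All are written 5′ to 3′.
Hspd1 and Hspe1: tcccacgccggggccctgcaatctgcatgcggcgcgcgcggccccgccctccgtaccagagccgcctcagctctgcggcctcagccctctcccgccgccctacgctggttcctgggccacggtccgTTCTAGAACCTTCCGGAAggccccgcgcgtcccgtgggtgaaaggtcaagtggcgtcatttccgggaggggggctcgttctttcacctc
Hsph1: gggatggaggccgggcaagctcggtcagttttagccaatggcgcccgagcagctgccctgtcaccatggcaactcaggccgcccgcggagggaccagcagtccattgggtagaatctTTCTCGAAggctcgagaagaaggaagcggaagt
Dnaja1: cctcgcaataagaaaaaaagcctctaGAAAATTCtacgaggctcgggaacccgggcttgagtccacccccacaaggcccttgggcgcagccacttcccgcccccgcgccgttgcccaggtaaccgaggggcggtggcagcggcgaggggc
Hspa5: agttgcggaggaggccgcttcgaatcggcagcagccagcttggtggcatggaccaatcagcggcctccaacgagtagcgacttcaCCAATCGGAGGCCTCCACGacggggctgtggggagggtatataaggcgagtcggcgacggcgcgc

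Paired heat shock units were searched as GAANNTTC and TTCNNGAA on both strands; the patterns are their own reverse complements and may overlap each other. Either pattern was found in at least 1 promoter window of 17.0% of 27025 genes, and of 4 of the 7 matched genes, Hsph1, Hspd1, Hspe1 and Dnaja1. For Hspd1 and Dnaja1 only the window of the start used here matched. The 3-unit heat shock element, in which the paired units overlap, was found for 0.662% of genes, and for Hspd1, Hspe1 and Hsph1. In Hspd1 and Hspe1 it is the same stretch, chr1:55088059-55088076. It ends 72 bases before the Hspe1 start and 127 bases before the Hspd1 start at 55087932. In Hsph1 it lies after the start used here, from base 36 to base 48, and is not shown. The endoplasmic reticulum stress element, CCAAT and CCACG held 9 bases apart, was found for 0.137% of genes. Of the matched genes it was found in Hspa5, 65 to 47 bases before the start. A match describes letters in these windows and is not evidence of binding.

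The 10 genes were spread over a wide range of exon levels. Per kilobase of transcript, the deposited level in siNT fell from Hsp90ab1 to Hspa4l, a 1496-fold span, against a median of 194.5 depth-normalized reads per kilobase over the 12482 genes tested. Hsp90ab1, the constitutive cytosolic HSP90, stood at 20928 ± 2718 (SD, n = 3), rank 33 of 12482, and Hspa8, the constitutive cytosolic HSP70, at 14800 ± 838, rank 67. Hspe1, the mitochondrial cochaperonin HSP10, followed at 4217 ± 207.

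The middle of the order was close. Hspa5, the HSP70 of the endoplasmic reticulum (BiP), stood at 3115 ± 469 reads per kilobase, Hspd1, the mitochondrial chaperonin HSP60, at 3056 ± 448, and Hsp90aa1, the stress-inducible HSP90, at 2766 ± 812. Hspa5 and Hspd1 differed by 0.128 of their pooled SD and Hspd1 and Hsp90aa1 by 0.443, so their order is not resolved. Every other pair of neighbours in the order differed by at least 2.32 pooled SD. Hsph1, the HSP110 nucleotide exchange factor, stood at 1348 ± 161, and the J proteins Dnajb1 (HSP40) and Dnaja1 at 1006 ± 132 and 633 ± 54.9. Hspa4l, an HSP110 relative known for its role in testis, stood at 14 ± 3.08, rank 11574, and was the only one of the 10 below the all-gene median. Its counts were 40 to 70 reads per library.

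**Figure D1:**
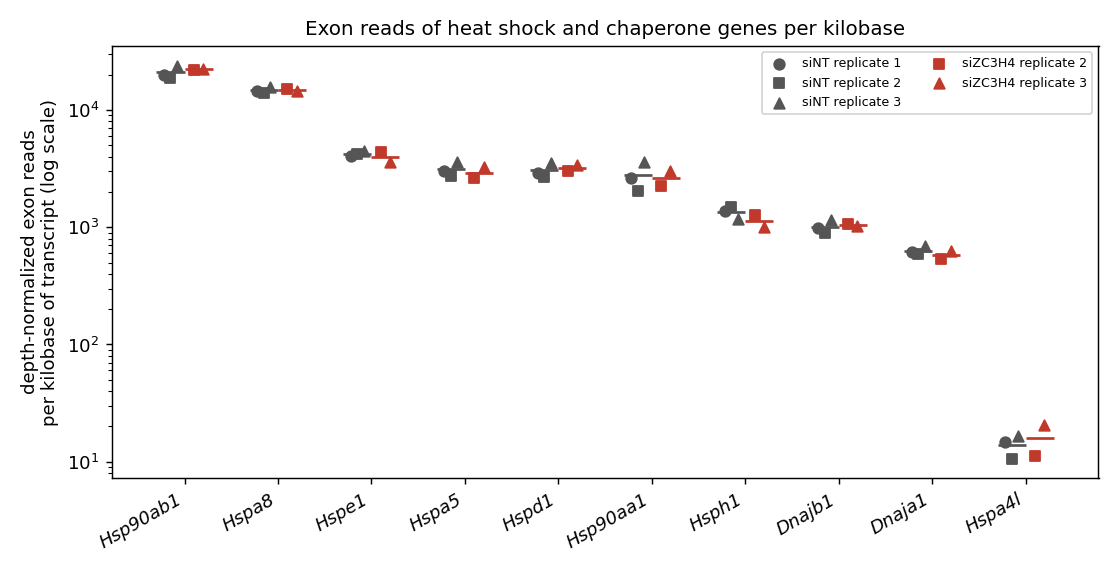
Depth-normalized exon reads per kilobase of transcript (y axis, log scale) of the 10 genes (x axis, ordered by siNT mean); grey points are the 3 siNT libraries, red points the 2 siZC3H4 libraries, and lines the group means. Hsp90ab1 and Hspa8 lie highest, Hspa4l stands alone near 14 reads per kilobase, and the siNT and siZC3H4 points of every gene overlap.

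Exon reads of the 10 genes were not called different between libraries labelled siZC3H4 and siNT. In limma 0 of 10 rose and 0 of 10 fell, and 0 passed an unadjusted p of 0.05, where 11.0% of all genes were higher and 4.39% lower at that p; edgeR and DESeq2 on the recovered reads also called 0. Over all 12482 genes tested, 2.22% rose and 0.144% fell. The log2 differences were above 0 for 5 genes and below 0 for 5, with a median of -0.02 against 0.01 over all genes. In all 10 the siNT and siZC3H4 values overlapped, whereas 19.5% of all genes were higher in both siZC3H4 libraries than in every siNT library and 12.8% lower. The 95% interval of the difference lay within 2-fold for 10 of 10 genes and within 1.5-fold for 9, the exception being Hspa4l.

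Among the HSP70 proteins, Hspa8 (chromosome 9, 40801276 to 40805199, mm10) had 30713, 29555 and 33015 depth-normalized exon reads in siNT and 31821 and 30541 in siZC3H4. Both siZC3H4 values fell inside the siNT range. The log2 difference was 0.01 ± 0.11 (SE; 95% interval -0.25 to 0.26; limma adjusted p = 0.993), and its spread within groups was among the smallest, at percentile 7.61 of all genes. The gene holds 3 snoRNA genes in RefSeq, Snord14c, Snord14d and Snord14e.

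Hspa5 (chromosome 2, 34772095 to 34776529) had 7567, 6877 and 9189 exon reads in siNT and 6604 and 8219 in siZC3H4. The lowest library was siZC3H4 replicate 2 and the highest siNT replicate 3, and the log2 difference was -0.09 ± 0.15 (limma adjusted p = 0.880). RefSeq places the gene Rabepk in overlap with it. Hspa4l (chromosome 3, 40745339 to 40789584) had 48, 34.8 and 54.6 in siNT and 36.8 and 66.9 in siZC3H4. Its interval was the widest of the 10, from -0.63 to 0.91 around 0.14 ± 0.34 (limma adjusted p = 0.922).

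The HSP90 genes differed from each other in their spread. Hsp90ab1 (chromosome 17, 45567778 to 45573266) had 50407, 47090 and 60219 exon reads in siNT and 55016 and 56617 in siZC3H4, a log2 difference of 0.09 ± 0.13 (limma adjusted p = 0.839). Hsp90aa1 (chromosome 12, 110691028 to 110696309) had 7600, 5804 and 10428 in siNT and 6425 and 8749 in siZC3H4, a difference of -0.04 ± 0.23 (limma adjusted p = 0.968). The siNT libraries alone spanned 1.80-fold for Hsp90aa1, and its spread within groups was at percentile 87.6 of all genes.

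The cochaperones of HSP70 followed. Hsph1 (chromosome 5, 149616845 to 149636246) had 4679, 5095 and 4009 exon reads in siNT and 4299 and 3446 in siZC3H4. It had the largest difference of the 10 below 0, at -0.25 ± 0.15 (95% interval -0.58 to 0.08; limma adjusted p = 0.487), and siZC3H4 replicate 2 lay inside the siNT range. Dnajb1 (chromosome 8, 83608299 to 83612653) had 2822, 2575 and 3325 against 3090 and 2977, a log2 difference of 0.07 ± 0.13 (limma adjusted p = 0.891). Dnaja1 (chromosome 4, 40722533 to 40734964) had 2040, 1960 and 2308 against 1771 and 2087, a difference of -0.13 ± 0.13 (limma adjusted p = 0.757).

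Hspd1 and Hspe1 encode the chaperonin ring and its lid in mitochondria and share a divergent promoter. The deposited gene starts differ from the RefSeq starts above and lie 511 bases apart on chromosome 1 (Hspd1 55077834 to 55087831, minus strand, and Hspe1 55088342 to 55091317, plus strand). Transcription antisense to one start therefore runs toward or into the other gene. Hspd1 had 6471, 6040 and 7945 exon reads in siNT and 6723 and 7510 in siZC3H4, a log2 difference of 0.07 ± 0.14 (limma adjusted p = 0.899). Hspe1 had 2311, 2403 and 2547 against 2516 and 2070, a difference of -0.08 ± 0.13 (limma adjusted p = 0.853). The libraries did not order the pair alike: siZC3H4 replicate 3 was the second highest of the 5 for Hspd1 and the lowest for Hspe1. RefSeq lists 5 pseudogenes named for Hspd1, 6 for Hspe1 and 1 for Dnaja1, and the treatment of reads that match several copies is not stated in the labels.

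The libraries also differed within each group. Against each gene's own mean over the 5 libraries, siNT replicate 3 was the highest library for 8 of 10 genes, where it was the highest for 29.1% of all genes. siNT replicate 2 was the lowest for 6 of 10, against 24.3% of all genes. The median deviation of the 10 genes was 0.18 (log2) in siNT replicate 3 and -0.17 in siNT replicate 2, against 0.04 and -0.04 over all genes. In siZC3H4 the medians were -0.01 in replicate 2 and 0.06 in replicate 3.

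Replicate 3 was above replicate 2 in both groups for 6 of 10 genes, as it was for 45.7% of all genes. Hsph1 ran the other way, highest in siNT replicate 2 and lowest in siZC3H4 replicate 3. Between its lowest and highest library a gene moved 1.12-fold for Hspa8 and 1.90-fold for Hspa4l, the smallest and the largest of the 10. The genes whose centred profile lay nearest to the mean profile of the 10 over the 5 libraries were Snx18, Atp7a and Cd2ap, with root mean square distances of 0.0105, 0.0123 and 0.0137 on the log2 scale among 12472 other genes.

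**Figure D2:**
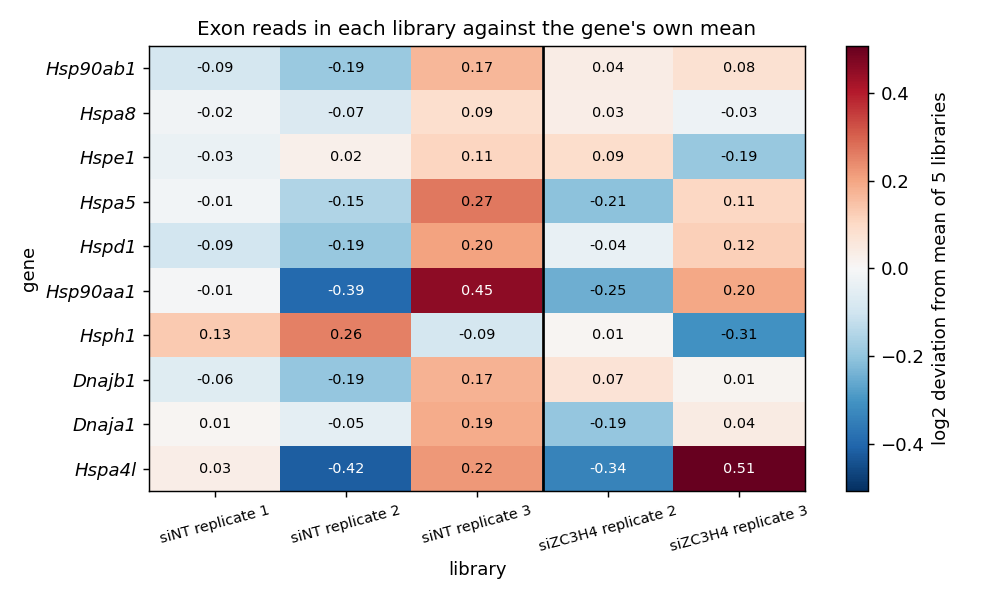
Log2 deviation of exon reads from the gene's own mean over the 5 libraries (colour and printed value), with genes in rows and libraries in columns; the black line parts siNT from siZC3H4. The siNT replicate 3 column is above the mean for 9 of 10 genes and the siNT replicate 2 column for 2 of 10.

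The upstream antisense RNA of the same promoters did differ. In limma 6 of the 7 uaRNAs rose and 0 fell, where 62.1% of the 5124 uaRNAs tested rose and 1.13% fell. The rising uaRNAs were those of Hspa8, Hsp90ab1, Dnajb1, Dnaja1, Hspa5 and Hsp90aa1, of which 5 rose at least 2-fold, and that of Hsph1 was not called. In 6 of 7 both siZC3H4 libraries lay above every siNT library, against 73.7% of all uaRNAs. The median log2 difference was 1.13 over the 7 and 0.88 over all uaRNAs, so a rise was common across the table and nothing particular to the 7 is read from their count. When the uaRNA table was instead scaled on itself by median-of-ratios factors, which sets the median of all uaRNAs to about 0, Hspa8 alone of the 7 passed the threshold, where 10.5% of all uaRNAs rose and 11.7% fell. Under that scaling Hsp90aa1 changed sign (0.71 to -0.18), and so did the uncalled Hsph1 (0.44 to -0.43).

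The Hspa8 uaRNA showed the largest difference. It had 480, 379 and 415 depth-normalized reads in siNT and 1578 and 1275 in siZC3H4, a mean of 425 ± 51.2 (SD, n = 3) against 1427 ± 214 (SD, n = 2). The lowest siZC3H4 library lay far above the highest siNT library. The log2 difference was 1.74 ± 0.21 (SE), or 3.35-fold, with a limma adjusted p of 6.55e-10, at percentile 91.1 of all uaRNAs, and it was 0.85 (adjusted p = 0.00337) with median-of-ratios factors. No other RefSeq gene lies in the 1 kb before the Hspa8 start.

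The HSP90 promoters gave unlike values. The Hsp90ab1 uaRNA had 218, 243 and 156 reads in siNT and 775 and 455 in siZC3H4 (206 ± 44.9 against 615 ± 226), a log2 difference of 1.55 ± 0.24 (limma adjusted p = 3.12e-07). The Hsp90aa1 uaRNA had 690, 602 and 670 against 1196 and 958 (654 ± 46.2 against 1077 ± 168), a difference of 0.71 ± 0.21 (limma adjusted p = 0.00278). The Hsp90aa1 call was lost without siZC3H4 replicate 2 (0.55, adjusted p = 0.0764), and its difference was at percentile 38.7 of all uaRNAs, below their median. Hsp90ab1 was at percentile 85.2, and RefSeq has a lncRNA, Gm35399, in the 1 kb before its start.

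The uaRNAs at the J protein genes lay nearer the middle. That of Dnajb1 had 143, 163 and 166 reads in siNT and 419 and 297 in siZC3H4, a log2 difference of 1.16 ± 0.24 (limma adjusted p = 5.62e-05). That of Dnaja1 had 190, 134 and 200 against 388 and 365, a difference of 1.13 ± 0.24 (limma adjusted p = 8.25e-05). Neither overlapped between groups, and they lay at percentiles 66.8 and 64.6. RefSeq has a lncRNA, Gm42029, in the 1 kb before Dnajb1, and Aptx and the lncRNA Gm6297 before Dnaja1. The uaRNA table gives no coordinates, so reads of such neighbours cannot be told apart from the uaRNA.

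At Hspa5 the uaRNA had 264, 253 and 247 reads in siNT and 572 and 463 in siZC3H4, a log2 difference of 1.01 ± 0.23 (limma adjusted p = 0.000149), at percentile 57.8. Its siNT libraries were close together, and both siZC3H4 libraries lay clear of them. At Hsph1 it had 46, 57.4 and 52.9 against 93.9 and 53.5, a difference of 0.44 ± 0.31 (95% interval -0.18 to 1.07; limma adjusted p = 0.206). There siZC3H4 replicate 3 fell inside the siNT range, and the recovered counts were 46 to 166 reads per library. In all 7 uaRNAs siZC3H4 replicate 2, the deepest library, was above siZC3H4 replicate 3. Without it the median log2 difference of the 7 was 0.92, against 0.78 over all uaRNAs, with Hspa8 at 1.59 and Hsph1 at 0.04.

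**Figure D3:**
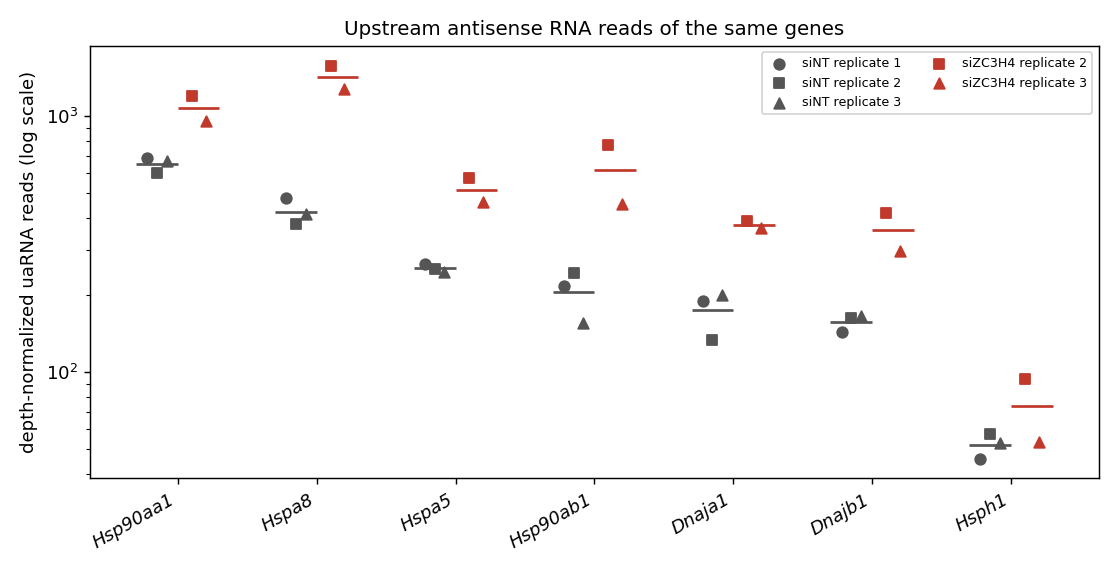
Depth-normalized uaRNA reads (y axis, log scale) at the 7 genes with a uaRNA row (x axis); grey points are the 3 siNT libraries, red points the 2 siZC3H4 libraries, and lines the group means. The groups are apart for 6 of 7, widest at Hspa8 (425 against 1427), and overlap at Hsph1.

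Antisense output was also set against sense output at the same promoter, as the log2 ratio of uaRNA to exon reads in each library. In limma 6 of 7 ratios rose, where 56.5% of the 5106 pairs tested rose, and in 7 of 7 both siZC3H4 libraries lay above every siNT library, against 70.0% of all pairs. The median log2 difference was 1.10, against 0.87 over all pairs. In uaRNA reads per 100 exon reads, Hspa8 went from 1.37 ± 0.170 in siNT (SD, n = 3) to 4.57 ± 0.555 in siZC3H4 (n = 2), a log2 difference of 1.74 ± 0.25 (limma adjusted p = 7.45e-08). Dnaja1 went from 8.27 ± 1.28 to 19.7 ± 3.13, a difference of 1.25 ± 0.27 (limma adjusted p = 0.000122). These differences were close to those of the uaRNAs alone, since the exon reads moved little. A depth factor shared by the uaRNA and exon reads of a library nearly cancels in the ratio. Median-of-ratios factors were computed separately for uaRNA and exon reads, which centres the uaRNAs, and do not cancel. With them, where 9.93% of all ratios rose and 9.71% fell, the Hspa8 ratio alone of the 7 passed (0.89, adjusted p = 0.00608). Those of Dnaja1 (0.40, adjusted p = 0.165), Hsp90ab1 (0.61, 0.163), Hspa5 (0.25, 0.455) and Dnajb1 (0.25, 0.468) did not.

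Hsp90ab1 had the fewest uaRNA reads for its exon reads, 0.403 ± 0.131 per 100 in siNT and 1.11 ± 0.427 in siZC3H4 (log2 difference 1.45 ± 0.28, limma adjusted p = 2.18e-05), and Hsp90aa1 went from 8.62 ± 2.01 to 14.8 ± 5.42 (0.75 ± 0.26, adjusted p = 0.0107). Hsp90aa1 and Dnaja1 had the most in siNT and did not differ beyond their spread. The Hsp90aa1 ratio was not called without siNT replicate 3 (adjusted p = 0.0856) or without siZC3H4 replicate 2, and its sign turned with median-of-ratios factors (-0.10), as did that of the uncalled Hsph1 ratio (-0.14). Hspa5 went from 3.28 ± 0.529 to 7.15 ± 2.15 and Dnajb1 from 5.46 ± 0.740 to 11.8 ± 2.52, with log2 differences of 1.10 ± 0.27 and 1.09 ± 0.27. Hspa5 was not called without siZC3H4 replicate 2 (adjusted p = 0.0628). Hsph1 went from 1.14 ± 0.169 to 1.87 ± 0.447 without overlap, and missed the threshold (0.69 ± 0.34, limma adjusted p = 0.0732).

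**Figure D4:**
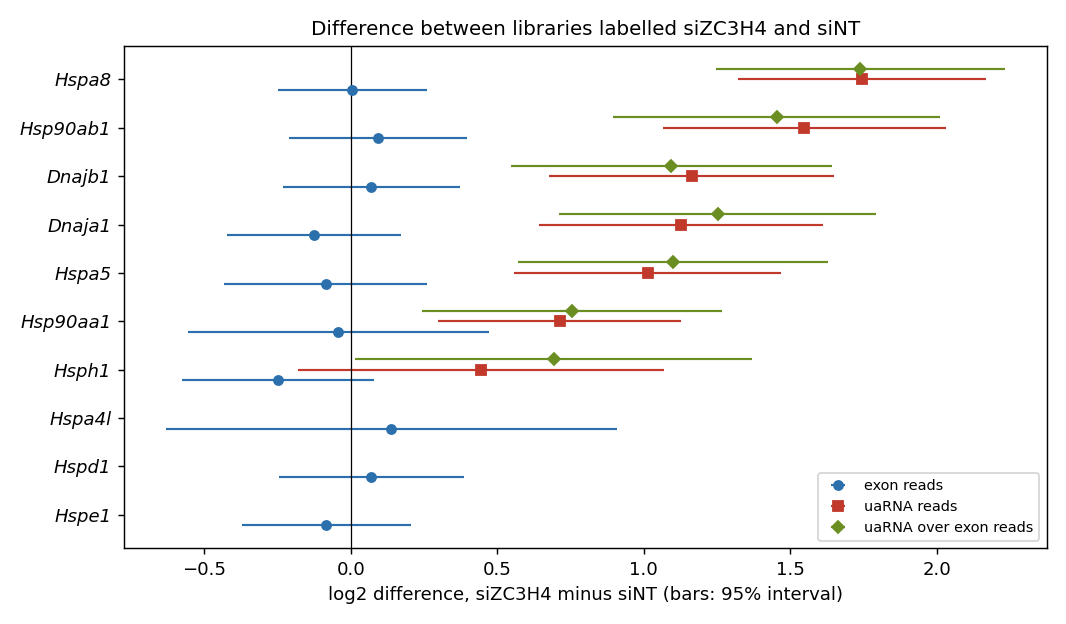
Log2 difference between libraries labelled siZC3H4 and siNT (x axis) for exon reads, uaRNA reads and the ratio of uaRNA to exon reads, with genes on the y axis and bars for 95% intervals. The 10 exon intervals all cross 0, and the uaRNA intervals of 6 of 7 genes lie above it.

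The wider chaperone network was described from 7 lists by role, 98 genes in all with the 10 left out, of which 92 were in the exon table and all 92 were tested. In limma 1 of 92 rose and 0 fell (7 higher and 5 lower at an unadjusted p of 0.05), edgeR called 1 and DESeq2 2, and the median log2 difference was -0.05. Over all genes limma's shares were 2.22% and 0.144% (11.0% and 4.39% at the unadjusted p), edgeR's 2.76% and 0.152% and DESeq2's 4.30% and 0.777%. The gene that rose was Dnajb5, a cytosolic J protein, whose family starts the ATP cycle of HSP70. It had 234, 243 and 294 exon reads in siNT and 582 and 533 in siZC3H4 (257 ± 32.2 against 557 ± 34.8), a log2 difference of 1.12 ± 0.17 (limma adjusted p = 0.0134). The groups did not overlap. The call was lost with no filter on low values and without siNT replicate 1, siZC3H4 replicate 2 or siZC3H4 replicate 3, where the adjusted p was 0.0583, 0.0959, 0.168 and 0.0618.

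None of the 5 genes of HSF1 and its regulators was called, and Hsf1 itself, the heat shock transcription factor, went from 818 ± 101 to 783 ± 68.0 exon reads (log2 difference -0.06 ± 0.15, limma adjusted p = 0.927). Of 9 inducible and small heat shock proteins tested, 0 were called in limma. At an unadjusted limma p of 0.05, 3 were higher and 0 lower, against 11.0% and 4.39% of all genes. They were Hspb6, Hspb1 and Cryab. Hspb6 went from 218 ± 22.3 to 368 ± 26.6 reads (0.76 ± 0.17, limma adjusted p = 0.0588), and DESeq2 called it. Hspb1 went from 1294 ± 85.7 to 1574 ± 90.4 reads (0.28 ± 0.12, limma adjusted p = 0.319). Cryab, the small heat shock protein alpha-B crystallin, had the largest difference of the 9, from 14.6 ± 4.35 to 32.7 ± 0.226 reads (1.14 ± 0.36, limma adjusted p = 0.157). Hspa1a, the stress-inducible HSP70 that marks a heat shock response, was low and not called, at 29.2 ± 6.23 and 24.7 ± 6.95 reads, and is nearly identical in sequence to Hspa1b, so its reads are uncertain.

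Of 21 cochaperones of HSP70 and HSP90, 0 were called, and Fkbp4, an HSP90-bound immunophilin, had the difference farthest from 0, from 10142 ± 733 to 7852 ± 664 (-0.37 ± 0.12, limma adjusted p = 0.162). Of 14 listed subunits of the cytosolic chaperonin TRiC and of prefoldin, 13 were tested and stayed uncalled, and Cct2 was absent. Cct7 went from 12213 ± 324 to 11572 ± 196. Of 19 chaperones of the endoplasmic reticulum 0 were called. Their log2 differences were above 0 for 5 and below 0 for 14, where 52.5% of all genes were above 0. At an unadjusted limma p of 0.05, 0 were higher and 3 lower. In 5 of the 19 both siZC3H4 libraries lay below every siNT library, against 12.8% of all genes. Calr, which binds glycoproteins, had 11399 ± 1012 and 9658 ± 1415 reads. Dnajc3 was lowest in difference at -0.42 ± 0.15 (limma adjusted p = 0.221). Of 11 mitochondrial chaperones 0 were called, with Hspa9, the mitochondrial HSP70, at 13276 ± 3358 and 14146 ± 2733, and Grpel2, an exchange factor for it, at -0.48 ± 0.15 (limma adjusted p = 0.162). Among these 4 lists 3 genes were higher and 5 lower at an unadjusted limma p of 0.05, where 11.0% of all genes were higher and 4.39% lower.

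**Figure D5:**
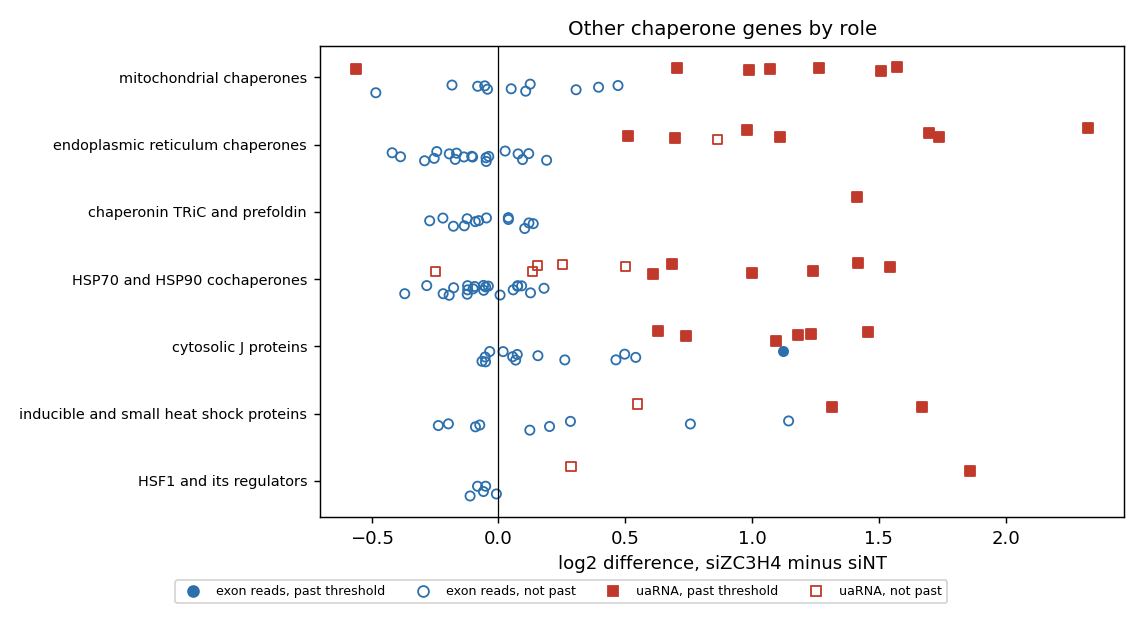
Log2 difference between libraries labelled siZC3H4 and siNT (x axis) of the other chaperone genes, grouped by role (y axis); blue circles are exon reads, red squares uaRNA reads, and filled symbols passed the threshold. Dnajb5 is the 1 filled circle, and 30 of 38 squares are filled.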

How the data were processed

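The 5 TT-seq libraries of siRNA-treated cells were analysed; 3 DMSO and 3 dTAG samples of the series are not analysed here. Per the labels, the library kit marks strand. The submitters' processing notes name cutadapt 1.14, STAR, featureCounts, DESeq2, mm10 and dm6, without settings. The authors deposited depth-normalized signal for exons and uaRNA regions. With depth factors of 1, 1.15 and 1.172 (siNT) and 1.767 and 1.046 (siZC3H4), 100% of deposited values were whole reads within 0.01; the sources used here do not say where the factors come from.

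Tests used limma 3.58.1 in R 4.3.3 (lmFit, eBayes with trend) on log2(value + 1), which understates changes of low features, for features with a mean of 10 or more, with Benjamini-Hochberg adjustment over each whole table and a threshold of 0.05. This kept 12482 genes, 5124 uaRNAs and 5106 ratios. "Rose" and "fell" mean past that threshold. The moderated tests had 9.22, 67.5 and 65.6 degrees of freedom, so uaRNA and ratio p-values lean on the spread over all features. edgeR 4.0.16 and DESeq2 1.42.0 were run on recovered reads. The scripts were tested on simulated data. Replicates differed by more than sampling noise; the labels do not say that they were separate cultures, so p-values measure the spread between these samples, which may be technical.

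The 10 genes and all lists were chosen with earlier results of these data known. Named genes were the 10, the siRNA target, the 3 nearest profiles and, per list, every called gene with those of highest level and of largest and smallest difference. Hspb6, Stub1 and the exon reads of Hspb1 and Dnajc19 were named after their values were seen. Alternatives were pseudocounts of 0.5 and 5, no filter, TMM and median-of-ratios factors, edgeR, DESeq2, a replicate block and each library left out.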

Additional observations from a re-analysis of the deposited data

How the results depend on the processing

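Exon reads of the 10 genes gave 0 calls under all 13 alternatives. The member uaRNA count of 6 became 1 (Hspa8) with TMM factors and 1 with median-of-ratios factors. All uaRNAs then rose in 11.0% and 10.5% and fell in 11.1% and 11.7%. The member count stayed 6 without any siNT library, where 55.3% to 60.4% of all uaRNAs rose. Without siZC3H4 replicate 2 or 3 the median log2 difference of the 7 was 0.92 or 1.17. The ratio count of 6 became 1 (Hspa8) with median-of-ratios factors, where 9.93% of all ratios rose. Without a siNT library it was 5 to 6, where 46.1% to 53.8% of all ratios rose. Without siZC3H4 replicate 2 or 3 the median log2 difference of the 7 ratios was 0.87 or 1.41. The TMM and median-of-ratios factors moved the median of all uaRNAs from 0.88 to 0.03 and -0.00053. The network exon count of 1 became 0 with no filter, 2 with DESeq2 and 0 to 3 without a library, and its uaRNA count of 30 became 8 with TMM factors, 8 with median-of-ratios factors and 17 to 30 without a library. Of 45 uaRNAs of the 10 genes and the network, 15 changed sign with TMM and 15 with median-of-ratios factors, 8 of them called with the deposited factors: Hsp90aa1 (-0.15, -0.18), Dnajb6 (-0.23, -0.26), Dnajc21 (-0.12, -0.15), Bag6 (-0.26, -0.28), Cdc37l1 (-0.17, -0.20), P4hb (-0.17, -0.19), Hyou1 (-0.35, -0.38) and Hspa9 (-0.16, -0.19), besides the Hsp90aa1 ratio (-0.10 with median-of-ratios factors). The other 7, uncalled before, include Hsph1 (-0.41, -0.43) and Stub1, named after its values were seen, which was then called lower (-0.71, -0.74). The factors' construction, which centres the uaRNAs, gives these shifts. Replicates 2 and 3 share only a number between groups; deviations of same-numbered samples correlated at 0.621 (exon) and 0.444 (uaRNA), over 2 numbers. With the replicate block the counts were 0 exon, 6 uaRNA and 6 ratio calls among the 10 genes. There 62.1% of all uaRNAs and 60.7% of all ratios rose. The block also called 12 network genes on exon reads (6 higher, 6 lower, where 12.3% and 6.65% of all genes were). Among them were Fkbp4 (-0.40), Grpel2 (-0.48), Dnajc3 (-0.43) and Cryab (1.03). Leaving out a siZC3H4 library leaves 1 in that arm, whose spread is assumed to be like that of siNT. Low counts limit Hspa4l and the Hsph1 uaRNA.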

Other observations

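Upstream antisense RNA of the wider chaperone network was measured for 38 regions, of which 29 rose (76.3%) and 1 fell in limma, where 62.1% of all uaRNAs rose. The uaRNAs of Hikeshi (0.29 ± 0.26) and Hspb1 (0.55 ± 0.25) were not called. All 6 tested at cytosolic J protein genes rose, with Dnaja2 at a log2 difference of 1.46 ± 0.24 (SE), 6 of 11 at HSP70 and HSP90 cochaperones, 7 of 8 at endoplasmic reticulum chaperones and 6 of 7 at mitochondrial chaperones. The differences were 1.86 ± 0.28 at Hsbp1, whose product binds HSF1, 1.67 ± 0.36 at Hspa1b, 1.31 ± 0.21 at Hspa4, 1.55 ± 0.29 at Chordc1, 1.24 ± 0.22 at Ptges3 (the HSP90 cochaperone p23) and 1.41 ± 0.35 at the chaperonin subunit gene Cct4. In the endoplasmic reticulum list they were 1.74 ± 0.28 at Dnajb9, 1.70 ± 0.24 at Pdia4 and 2.32 ± 0.47 at Sdf2l1, whose reads were few, and in the mitochondrial list 1.57 ± 0.31 at Trap1 and 1.51 ± 0.26 at Clpp. The other uaRNAs that rose were those of the J protein genes Dnajc5, Dnajc9, Dnajb2, Dnajb6 and Dnajc21 (0.63 to 1.23), of the cochaperone genes Sgta, Bag6, Cdc37l1 and Ppid (0.61 to 1.42), of Canx, Sil1, P4hb and Hyou1 (0.51 to 1.11) and of the mitochondrial Timm44, Dnaja3, Clpx and Hspa9 (0.70 to 1.27). With TMM factors 6 of the 38 were higher and 2 lower, where 11.0% of all uaRNAs rose and 11.1% fell.

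The uaRNA that fell was that of Dnajc19, a J protein of the mitochondrial inner membrane, with 473 ± 90.0 reads in siNT and 318 ± 37.7 in siZC3H4 (log2 difference -0.56 ± 0.23, limma adjusted p = 0.0283). The call was lost with the replicate block (limma adjusted p = 0.0782) and without siNT replicate 1 (0.167) or siNT replicate 3 (0.0846). Without siZC3H4 replicate 2 the difference was -0.44 and the call was also lost. With TMM and median-of-ratios factors, which centre all uaRNAs near 0, it was -1.42 and -1.45 and past the threshold. The Dnajc19 ratio of uaRNA to exon reads also fell (-0.96 ± 0.27, limma adjusted p = 0.00207), where 1.65% of all ratios fell. The exon reads of Dnajc19, which enter this ratio, went from 397 ± 27.4 to 525 ± 87.1 (0.40 ± 0.16, limma adjusted p = 0.290). They were higher in both siZC3H4 libraries than in every siNT library, as were 19.5% of all genes. At Bag3, an exchange factor for HSP70 that HSF1 regulates, the uaRNA difference was -0.25 ± 0.41 (limma adjusted p = 0.598). Its depth-normalized reads were few, 13.4 to 30 per library. The difference was -1.10 with median-of-ratios factors, past the threshold (limma adjusted p = 0.0498). With TMM factors it was -1.07 and not past it (0.0555).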
